A study of Mus musculus with 10 samples.

Results

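A set of 7 genes of thyroid hormone handling was followed in the cochlea, the hearing organ of the inner ear, of newborn mice: the deiodinases Dio2 and Dio3, the receptors Thra and Thrb, the transporters Slc16a10 and Slco1c1, and the binding protein Crym. They are 7 of the 54532 genes in the deposited table and were found there by symbol. Dio3 was chosen by its rise in the same comparison of genotypes, so its values are a description with no test; the other 6 were chosen for their known role in the maturation of the cochlea. The libraries came from female mice on postnatal day 1, and 1 library was made from 1 animal, whose left and right cochlear soft tissue was combined after removal of the bone. Control animals (Esrrgfl/fl, 5 libraries) carried Esrrg alleles flanked by loxP sites, with no Cre named in the labels; the strain is not given in the sources used here. The second genotype (Esrrgfl/fl;Sox10-Cre, 5 libraries, labelled cKO for conditional knockout) carried the same alleles and Sox10-Cre, a recombinase made only in cells that use Sox10 regulatory sequence; the soft tissue also holds cells that do not. Since fewer cells of a type and less RNA per cell look alike in whole tissue, a lower level cannot be assigned to either.

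Thyroid hormone reaches tissues mainly as the prohormone T4, enters cells through transporters of the monocarboxylate, organic anion and amino acid families, and is turned into the active hormone T3 by type 2 deiodinase (Dio2). Type 3 deiodinase (Dio3) does the opposite and inactivates both T4 and T3. In the nucleus, T3 binds the receptors made from Thra and Thrb, which pair with retinoid X receptors and exchange corepressors for coactivators. The developing cochlea is known for its need of this system: a lack of hormone, of Thrb or of Dio2 impairs hearing, an early excess through loss of Dio3 does so too, and Dio3 is known to be used early and Dio2 later in the postnatal cochlea.

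The deiodinases are selenoproteins, in which the stop codon TGA is read as selenocysteine in the catalytic site. Their coding sequences around that codon are shown because they are what Dio2 and Dio3 share beyond their opposite effects on the hormone. Each is the coding strand from the GENCODE release M21 transcripts, on build GRCm38, in lower case with the selenocysteine codon in capitals. The Dio3 stretch lies at chr12:110279709-110279771 on the plus strand and holds codon 170 of 304. The Dio2 stretch lies at chr12:90729793-90729855 on the minus strand and holds codon 130 of 266.
Dio3: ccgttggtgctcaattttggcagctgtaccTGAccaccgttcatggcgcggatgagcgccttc
Dio2: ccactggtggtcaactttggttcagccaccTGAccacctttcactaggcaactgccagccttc
Of the 63 bases of each stretch, 41 (65.1%) were identical between Dio2 and Dio3. The reading frame of Dio2 holds another TGA, codon 263, near its end.

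The libraries held 33.5 to 41.8 M counts (M, mega), and 17937 genes passed the filter on low counts and were tested. The targeted gene went against its label: Esrrg had 48.5 to 64.7 CPM (counts scaled to 1 M per library with TMM factors) in controls and 70.7 to 109 CPM in the libraries labelled cKO, a log2 fold change of 0.62 (SE 0.117; edgeR adjusted p = 0.0259) that exceeded 0.05 in 7 of 10 fits without 1 library, up to 0.0992 without cKO 2. Gene counts cover all exons and do not show whether one was removed, so the group is called the libraries labelled cKO, and every direction below rests on that label. Markers of the labelled tissue were present: Pou3f4 and Coch of the periotic mesenchyme and its fibrocytes had mean FPKM (fragments per kilobase of exon, scaled to the library total) of 178 and 125 in controls, Sox2 of supporting cells 25.5, and the hair cell gene Pou4f3 5.29. P-values set the difference between genotypes against the spread between libraries, each made from 1 animal.

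Set side by side per gene length, the 7 genes covered more than 3 orders of magnitude in controls. Crym was highest, at 198 ± 31.8 FPKM (SD, n = 5), above 99.0% of all tested genes. Thra followed at 65.4 ± 2.71 FPKM, above 96.6% of tested genes, and Thrb at 8.65 ± 1.45 FPKM, above 66.6%. Dio2 (3.51 ± 0.568 FPKM), Slc16a10 (2.25 ± 0.216 FPKM) and Slco1c1 (1.58 ± 0.219 FPKM) came next, and Dio3 was last at 0.0599 ± 0.0687 FPKM, above only 0.463% of tested genes. In controls no 2 neighbours in this order had overlapping libraries. In the libraries labelled cKO the order of the means was the same, but Dio2 (1.75 to 4.80 FPKM) overlapped Slc16a10 (2.01 to 2.87 FPKM), so these neighbours could not be ranked there. Dio3 stayed last, at 0.613 ± 0.0731 FPKM, above 18.3% of tested genes.

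**Figure D1:**
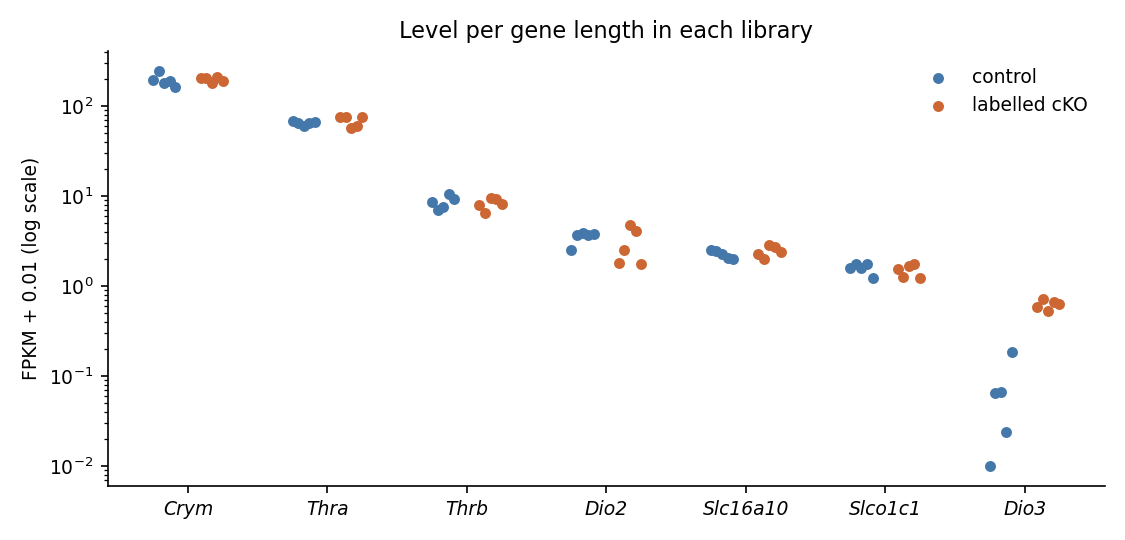
Level of each gene per length in each library, as FPKM + 0.01 on a log scale, with blue points for control and orange points for libraries labelled cKO (n = 5 each). Crym lies highest near 200 FPKM, and Dio3 is the gene whose points separate by genotype, from 0 to 0.174 FPKM in controls to 0.513 to 0.703 FPKM.

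Of the deiodinases, Dio3 (ENSMUSG00000075707; GRCm38 chromosome 12, 110279068 to 110281097, plus strand), the inactivating enzyme, was nearly absent from controls and low but present in every library labelled cKO. Dio3 had 0, 4, 4, 1 and 14 counts in controls 1 to 5, and the libraries labelled cKO had 39, 50, 42, 52 and 47. These counts correspond to 0, 0.112, 0.116, 0.0277 and 0.358 CPM in controls and to 1.17, 1.43, 1.04, 1.33 and 1.28 CPM in the libraries labelled cKO. The lowest library labelled cKO lay well above control 5, the highest control. The 0 of control 1 allows up to 0.0700 CPM (3 counts). Summed over a genotype, 23 counts gave 0.122 CPM in controls (exact 95% Poisson interval 0.0775 to 0.183) and 230 counts gave 1.25 CPM in the libraries labelled cKO (1.09 to 1.42); intervals and the limit for 0 cover counting error only. The fitted log2 fold change was 3.32 (SE 0.520). Over the 10 fits without 1 library it ran from 2.97 without control 1 to 4.28 without control 5, the control with most Dio3 counts. Dio3 is 1 of 13 genes called higher, 0.0725% of the genes tested, which is the reason it is described here and supports nothing further.

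Dio2 (ENSMUSG00000007682; chromosome 12, 90724552 to 90738438, minus strand), the activating enzyme, did not differ between the genotype means beyond its spread. It had 14.6, 21.8, 22.8, 21.7 and 22.0 CPM in control libraries 1 to 5, and 10.6, 14.5, 28.0, 23.6 and 10.4 CPM in the libraries labelled cKO. The second group reached both below and above the controls: cKO 3 and 4 exceeded every control, while cKO 1 and 5 were below every control and cKO 2 lay just under the lowest of them. The coefficient of variation was 16.4% in controls and 45.9% in the libraries labelled cKO; the difference in spread was not tested. The log2 fold change was -0.24 (SE 0.251, edgeR adjusted p = 0.778). The range of 2 SE either side, -0.74 to 0.26, includes no change and reaches further down than up. A change within this range could not be told from none. The log2 fold change moved to -0.48 without cKO 3 and to -0.098 without cKO 5, with no call in either. Exons of Dio2 share 100 bases with Gm26512 on the opposite strand, a gene of 5 to 17 counts per library beside at least 353 for Dio2. Type 1 deiodinase (Dio1), the form of liver and kidney, had 0 counts in all controls, which allows up to 0.0159 CPM over the group (3 counts), and 3 counts in all in the libraries labelled cKO; no fold is given.

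The FPKM of Dio2 exceeded that of Dio3 by 21.5 to 273 times in the 4 controls with any Dio3 count and by 2.82 to 9.37 times in the libraries labelled cKO. Dio2 was above Dio3 in every library of both genotypes. This ratio carries the choice of Dio3 and is a description.

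**Figure D2:**
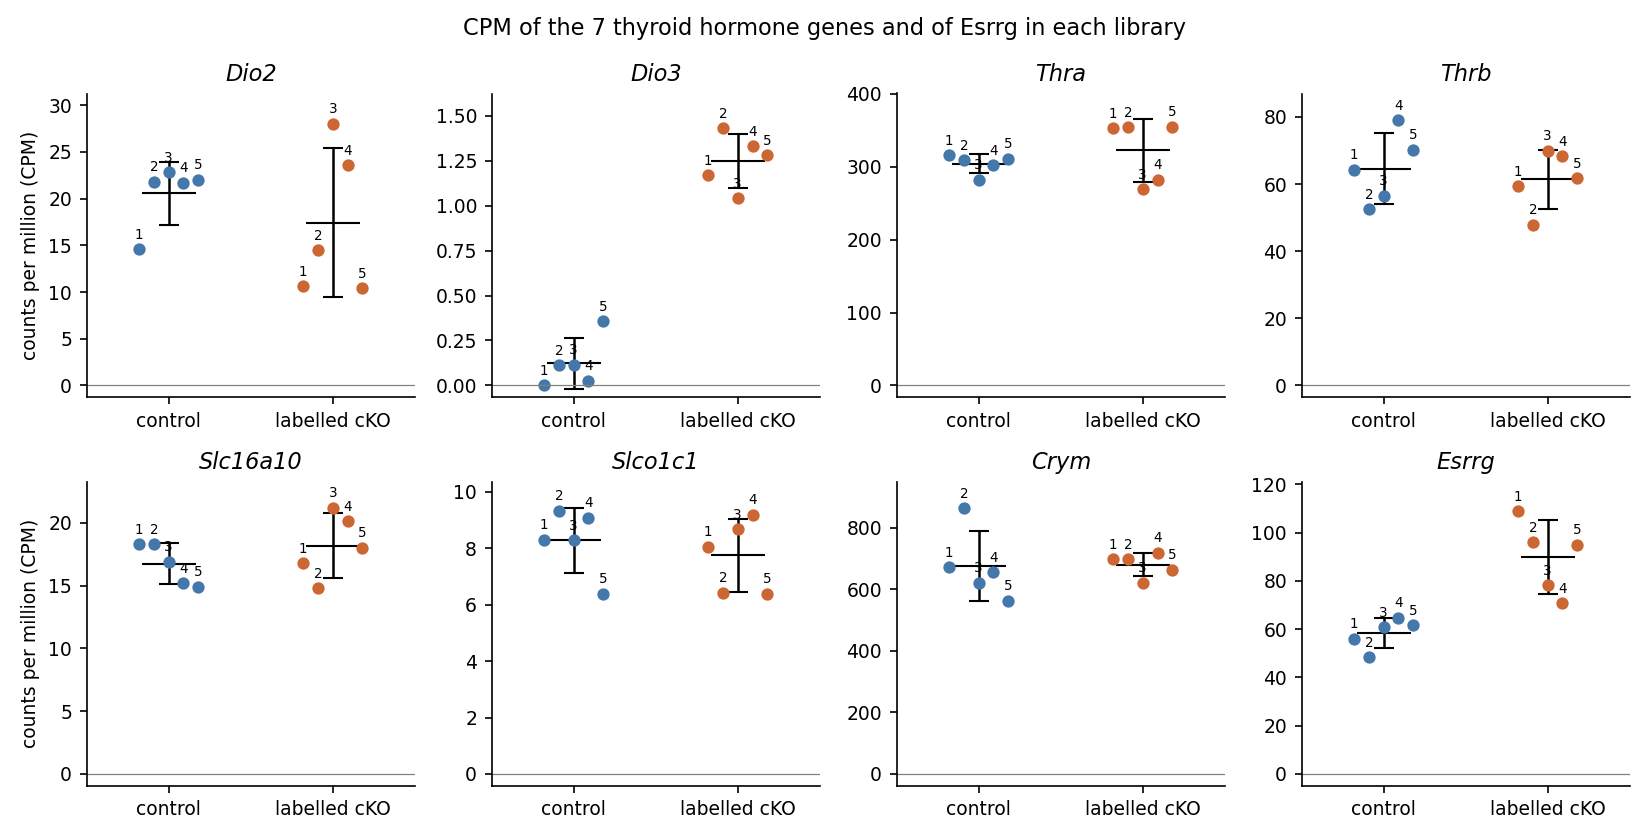
CPM of the 7 genes and of Esrrg, 1 point per library with its number, bars for the mean and SD of 5 libraries; blue is control and orange labelled cKO. Dio3 and Esrrg are the panels with no overlap between genotypes, and Dio2 in the libraries labelled cKO spans 10.4 to 28.0 CPM.

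Neither receptor differed between genotypes beyond the spread between animals. Thra (ENSMUSG00000058756; chromosome 11, 98740638 to 98769006, plus strand) encodes the T3 receptor alpha 1 and a variant, alpha 2, that does not bind hormone, and gene counts do not separate them. Control libraries 1 to 5 had 316, 309, 282, 302 and 311 CPM, and the libraries labelled cKO had 353, 354, 269, 282 and 355 CPM. The latter fell on both sides of the controls, with cKO 1, 2 and 5 above all of them and cKO 3 below all of them. The log2 fold change was 0.09 (SE 0.0937), with 2 SE either side from -0.10 to 0.27 and an edgeR adjusted p of 0.786. The last exons of Thra share 263 bases with Nr1d1, which encodes the clock repressor REV-ERB alpha on the opposite strand and had 150 to 377 counts per library beside at least 9733 for Thra; how the authors' counting used strand is not given in the sources used here.

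Thrb (ENSMUSG00000021779; chromosome 14, 17660261 to 18038090, plus strand), the receptor on which hearing depends most, had 64.3, 52.6, 56.5, 79.0 and 70.3 CPM in controls and 59.4, 47.9, 70.0, 68.4 and 61.8 CPM in the libraries labelled cKO. The groups overlapped across most of their range. Its log2 fold change was -0.07 (SE 0.123), with 2 SE either side from -0.32 to 0.18 and an edgeR adjusted p of 0.877; the sign turned without cKO 2 (0.004) and without control 4 (0.01). Per length Thra exceeded Thrb in every library, by 6.14 to 9.43 times in controls and 6.16 to 11.9 times in the libraries labelled cKO. The ratio was largest in cKO 2, at 11.9, and the other 4 libraries labelled cKO lay between 6.16 and 9.54.

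Slc16a10 encodes MCT10, a carrier of aromatic amino acids and iodothyronines, and Slco1c1 encodes OATP1C1, a carrier with high affinity for T4 known from brain vessels and choroid plexus. Slc16a10 (ENSMUSG00000019838; chromosome 10, 40033532 to 40142258, minus strand) had 18.3, 18.3, 16.9, 15.2 and 14.9 CPM in controls and 16.8, 14.8, 21.2, 20.1 and 18 CPM in the libraries labelled cKO, where cKO 3 and 4 exceeded every control. Its log2 fold change was 0.12 (SE 0.113; edgeR adjusted p = 0.749), and 2 SE either side ran from -0.11 to 0.35 Slco1c1 (ENSMUSG00000030235; chromosome 6, 141524368 to 141570177, plus strand) had 8.30, 9.33, 8.29, 9.09 and 6.39 CPM in controls and 8.06, 6.43, 8.68, 9.19 and 6.39 CPM in the libraries labelled cKO. The libraries of the 2 genotypes covered nearly the same range. Its log2 fold change was -0.09 (SE 0.143; edgeR adjusted p = 0.850), and 2 SE either side ran from -0.38 to 0.19 Summed CPM of the blood vessel markers was 364 to 449 in controls and 409 to 454 in the libraries labelled cKO, and that of the choroid plexus markers, which include Ttr, 73.6 to 109 and 84.2 to 100; their part in the level of Slco1c1 was not tested.

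Crym (ENSMUSG00000030905; chromosome 7, 120186380 to 120202111, minus strand) encodes mu-crystallin, which holds T3 in the cytoplasm and is a deafness gene in humans. It had 673, 864, 622, 656 and 564 CPM in controls and 699, 699, 622, 719 and 664 CPM in the libraries labelled cKO. Control 2 was the highest library of all, and the remaining libraries lay between 564 and 719 CPM. The log2 fold change was 0.01 (SE 0.106; edgeR adjusted p = 0.981), and 2 SE either side ran from -0.20 to 0.22 Its sign turned under upper-quartile scaling (-0.004) and in 6 of 10 fits without 1 library, and it was 0.10 without control 2.

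Thus 0 of the 6 genes chosen for their role were called by edgeR at an adjusted p under 0.05, where 0.619% of all tested genes were, and 0 had an unadjusted p under 0.05, where 9.65% of all tested genes did. DESeq2 and limma-voom with quality weights, which count less the libraries that fit less well, called 0 of them too. Their median log2 fold change was -0.03, with 3 higher and 3 lower, beside -0.01 over all tested genes.

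Within the libraries labelled cKO, the levels of several of these genes ran in the same or the opposite order. Dio2, Slc16a10, Slco1c1 and Thrb had their 2 highest values in cKO 3 and cKO 4. Thra had its 2 lowest values in those libraries. In log2 CPM, Dio2 stood 0.81 above its group mean in cKO 3 and 0.56 above it in cKO 4, where Thra stood at -0.25 and -0.18. Controls did not repeat the shared order of Dio2, Slc16a10, Slco1c1 and Thrb, which were highest in controls 3, 2, 2 and 4. Dio2 and Thra were opposite at both ends of the controls. Dio2 was lowest in control 1, at -0.48, where Thra was highest, at 0.06. In control 3 Dio2 was highest, at 0.17, and Thra lowest, at -0.11. Among the libraries labelled cKO, cKO 3 and 4 have the largest counts, 40.0 and 39.3 M against 33.5 to 36.5 M. Of the 13 lists of cell type markers, only marginal cell, erythroid and macrophage markers had cKO 3 and 4 together at an end. They were picked out with their values known, and how often other genes show such an order was not tested. Summed CPM of marginal cell markers of the stria vascularis was 547, 598, 639, 627 and 544 in cKO 1 to 5, highest in cKO 3 and 4. Erythroid markers summed to 871, 1300, 681, 444 and 1110 CPM and macrophage markers to 222, 236, 200, 211 and 250 CPM, both lowest in cKO 3 and 4. The remaining lists did not have this order, among them periotic mesenchyme markers, at 10200, 11100, 10100, 9960 and 9650 CPM. The targeted gene Esrrg had 109, 96.0, 78.2, 70.7 and 95.0 CPM in cKO 1 to 5, also lowest in cKO 3 and 4. Rian, Dlk1, Klf9 and Sult1a1, described below, were lowest in the same 2 libraries. Meg3, Mirg, Ppargc1a and Mbp did not have cKO 3 and 4 together at an end. These genes were looked up with their values known, so the order is not particular to the thyroid hormone genes. The part of depth, of Esrrg or of cell content in this order was not tested.

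**Figure D3:**
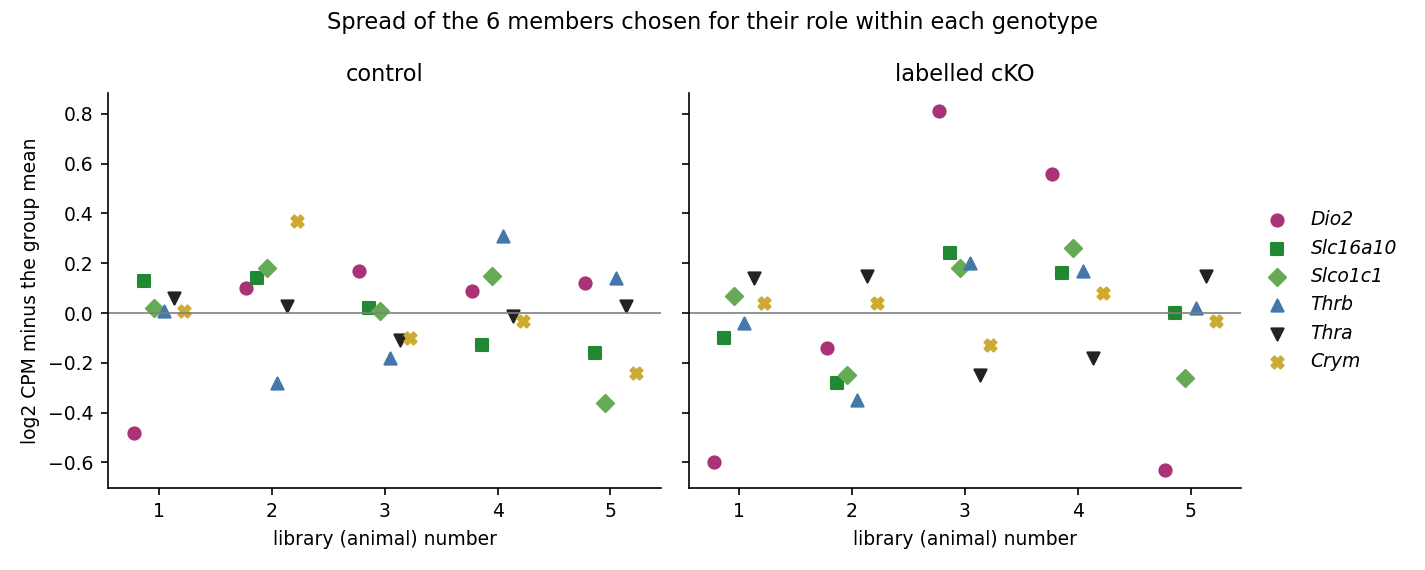
Log2 CPM of each of the 6 genes chosen for their role minus its mean in the genotype, by library number, controls left and libraries labelled cKO right. In cKO 3 and 4 Dio2, Slc16a10, Slco1c1 and Thrb lie above 0 and Thra lies below 0; Dio2 covers -0.63 to 0.81.

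The genes with the most similar spread were sought among 14047 other protein-coding genes of at least 1 CPM, by Pearson's r between deviations of log2 CPM from the genotype mean over the 10 libraries; with so many genes and 10 libraries high values arise easily, and r is given as a description. For Dio2 they were Cdc6, a factor that licenses DNA replication (r = 0.981), and Plk4, the kinase of centriole duplication (r = 0.958), and r was 0.963 and 0.95 without the 2 libraries farthest from the median, cKO 3 and 5. Cdc6 had 4.20, 5.15, 8.33, 7.28 and 3.88 CPM in cKO 1 to 5, again highest in cKO 3 and 4, and 5.34 CPM in control 1 against 7.21 to 8.57 CPM in the other controls. The closest genes to Thra were Porcn (r = 0.969) and Aldh6a1 (0.955), to Thrb Inpp5b (0.913) and Slco5a1 (0.912), and to Slc16a10 Smarca5 (0.973) and Mfsd12 (0.969). Slco1c1 was most like Lekr1 (0.954) and Hsph1 (0.953). Crym was most like Capsl (0.966) and Sdhaf4 (0.960), and the latter fell to 0.734 without control 2 and 5. Dio3, at under 1 CPM on average, was not compared.

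The other genes of the pathway showed no call. Of 50 such genes listed, 45 passed the filter on low counts; edgeR called 0, DESeq2 0 and limma-voom with quality weights 2 (Ppargc1a and Kcnma1, both lower). Of the 45, 10 (22.2%) had an unadjusted p under 0.05, beside 9.65% of all tested genes, and 2 (4.44%) showed no overlap in CPM between genotypes, beside 2.84%. Their median log2 fold change was 0.09, with 30 higher and 15 lower by sign. Over all tested genes the median was -0.01, with 8661 higher and 9276 lower.

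Slco2b1, an organic anion carrier, was without overlap among the transporters, with 13.7 to 15.2 CPM in controls and 15.4 to 21 CPM in the libraries labelled cKO, a log2 fold change of 0.30 (SE 0.102) and an edgeR adjusted p of 0.326; its exons overlap those of 2 other genes. Slco1a4, named after its values were seen, had a log2 fold change of 0.44 (SE 0.134; edgeR adjusted p = 0.255). The amino acid carriers Slc7a5, Slc7a8 and Slc3a2 had 0.16, 0.20 and -0.09.

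Among genes of breakdown and of selenoprotein synthesis, the selenocysteine factor Secisbp2 stood at a log2 fold change of 0.15 (SE 0.0795), Sephs2 at -0.17 (SE 0.127), and Wsb1 and Usp33, which tag Dio2 protein with ubiquitin and remove it, had -0.24 (SE 0.0924) and 0.03 (SE 0.0930), all with edgeR adjusted p of at least 0.417. The sulfotransferase Sult1a1, chosen after its values were seen, ran from 16.5 to 25.7 CPM in controls and had 58.8 and 43.3 CPM in cKO 1 and 5 but 18.4 to 25.0 CPM in cKO 2, 3 and 4, and its exons overlap those of Sgf29. Its log2 fold change was 0.74 (SE 0.276; edgeR adjusted p = 0.397), and 0.43 without cKO 1. Of the plasma binding proteins only Ttr was tested, with a log2 fold change of 0.02 (SE 0.249).

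Of the receptor partners, Rxra, chosen after its values were seen, stood at a log2 fold change of 0.23 (SE 0.0883; edgeR adjusted p = 0.430), Rxrb 0.06 (SE 0.0829) and Rxrg 0.12 (SE 0.131). Of 13 corepressors and coactivators, 11 were higher and 2 lower by sign, none called, with a median of 0.10; Ncor1 had 0.15 (SE 0.159), Hdac3 -0.01 (SE 0.0800) and Ep300 0.30 (SE 0.168). The coactivator Ppargc1a, a partner of estrogen-related receptors as well, was named after its values were seen and had the smallest p of this list. It had 22.7, 18, 23.4, 25.1 and 24.1 CPM in controls and 19.3, 14.7, 18.2, 14.0 and 18.3 CPM in the libraries labelled cKO. Only control 2 lay among the libraries labelled cKO. The log2 fold change was -0.42 (SE 0.119, edgeR adjusted p = 0.192). Without control 2, the overlapping control, it was -0.51 with an edgeR adjusted p of 0.0230, which is a call. The other 9 fits without 1 library gave edgeR adjusted p of 0.151 to 0.428, with no call.

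The 15 genes known to respond to T3 in some tissue had a median log2 fold change of -0.06, with 7 higher and 8 lower by sign and 0 called. Klf9, a direct T3 target in brain that was chosen after its values were seen, had 35.5, 20.7, 40.1, 38.6 and 33.1 CPM in controls and 125, 41.3, 40.3, 28.0 and 54.9 CPM in the libraries labelled cKO. The high mean of the second group rested on cKO 1: the log2 fold change was 0.78 (SE 0.366; edgeR adjusted p = 0.532), and 0.29 without that library. Thrsp, a T3-induced gene of lipid synthesis chosen after its values were seen, showed the same library apart, at 2.34 CPM in cKO 1 and 0.740 to 0.870 CPM in cKO 2 to 5; its log2 fold change of 0.83 (SE 0.357) became 0.38 without it. Hr, another direct target, had 0.01 (SE 0.158).

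Of the T3-dependent genes of cochlear maturation, the outer hair cell gene Slc26a5, which encodes prestin, stood at a log2 value of 1.11 (SE 0.577), from 0 to 19 counts per library. The tectorial membrane genes went apart by sign, Tecta with 0.19 (SE 0.122) and Tectb with -0.42 (SE 0.126). Tectb, whose exons overlap those of another gene and which was chosen after its values were seen, had 340, 454, 457, 508 and 374 CPM in controls and 280, 312, 372, 366 and 265 CPM in the libraries labelled cKO, where cKO 3 and 4 were again the highest and overlapped the lowest control. Its edgeR adjusted p was 0.244. The myelin gene Mbp, also picked with its values known and also on the Schwann cell list, had -0.50 (SE 0.170; edgeR adjusted p = 0.328); summed CPM of that list was 962 to 1100 in controls and 652 to 1030 in the libraries labelled cKO, and its part in the value of Mbp was not tested.

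**Figure D4:**
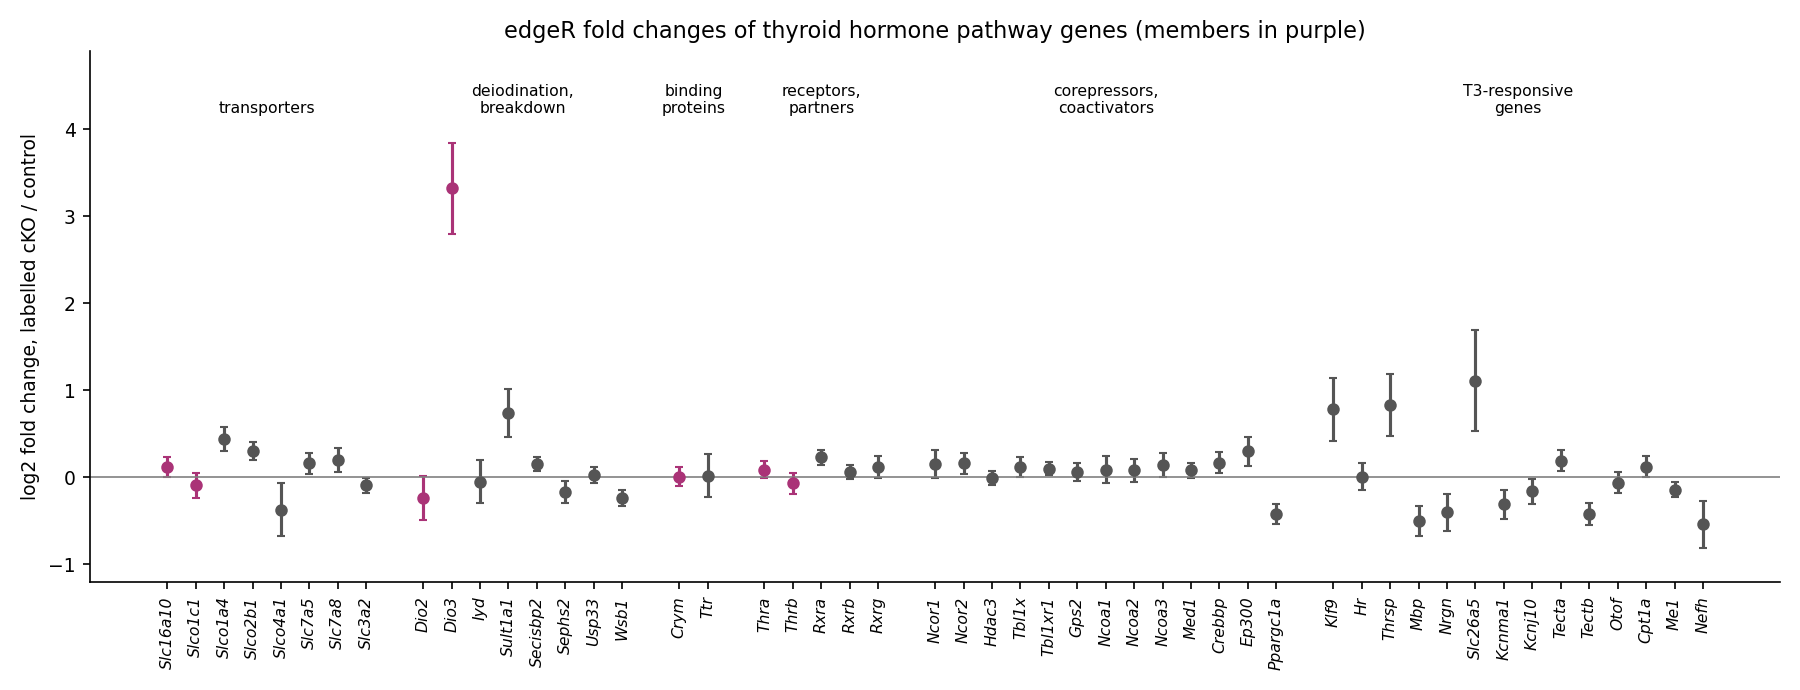
Log2 fold change with its SE (edgeR, libraries labelled cKO over control) of the members (purple) and of 43 of the 45 other pathway genes tested (grey), grouped by role. Dio3 stands at 3.32, and the other genes shown lie between -0.54 and 1.11.

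Dio3 lies at the end of an imprinted region on chromosome 12, in which Dlk1, Rtl1 and Dio3 are mainly read from the paternal copy and the noncoding RNAs Meg3, Rian and Mirg from the maternal one. Of 9 other genes listed there and beside it, 8 were tested; edgeR called 0, DESeq2 1 and limma-voom with quality weights 1, in both cases Rian. Of the 8, 4 had an unadjusted p under 0.05, all with a negative log2 fold change, beside 9.65% of all tested genes at that threshold in either direction. Dlk1, 816 kb before Dio3, had a log2 fold change of 0.06 (SE 0.164). Rian, a host of small nucleolar RNAs, had 222, 228, 232, 227 and 251 CPM in controls and 220, 182, 147, 136 and 171 CPM in the libraries labelled cKO. All controls exceeded all libraries labelled cKO, with cKO 1 just under the lowest control; Rian was the 1 gene of the 8 without overlap (12.5%), beside 2.84% of all tested genes. Its log2 fold change was -0.44 (SE 0.112, edgeR adjusted p = 0.142). Without cKO 1, the library nearest the controls, it was -0.55 with an edgeR adjusted p of 0.0217, a call. The other 9 fits without 1 library gave edgeR adjusted p of 0.0999 to 0.325, with no call.

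Meg3, Mirg and Rtl1 were picked once their values were known. Meg3 stood at a log2 fold change of -0.45 (SE 0.194; edgeR adjusted p = 0.479), Mirg at -0.55 (SE 0.172; 0.281) and Rtl1 at -0.90 (SE 0.402; 0.495); exons of Meg3, Rian, Mirg and Rtl1 overlap those of small RNA genes. Dio3os, read away from Dio3 from a start 896 bases before it, was too low to be tested and overlaps another gene in its exons: controls had 4, 0, 2, 0 and 1 counts and the libraries labelled cKO 16, 6, 16, 3 and 5. Summed, this was 0.0372 CPM (exact 95% Poisson interval 0.0150 to 0.0767) and 0.250 CPM (0.183 to 0.333), and the libraries of the genotypes overlapped at 3 to 4 counts. On the far side, Ppp2r5c had 0.06 (SE 0.0645).

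**Figure D5:**
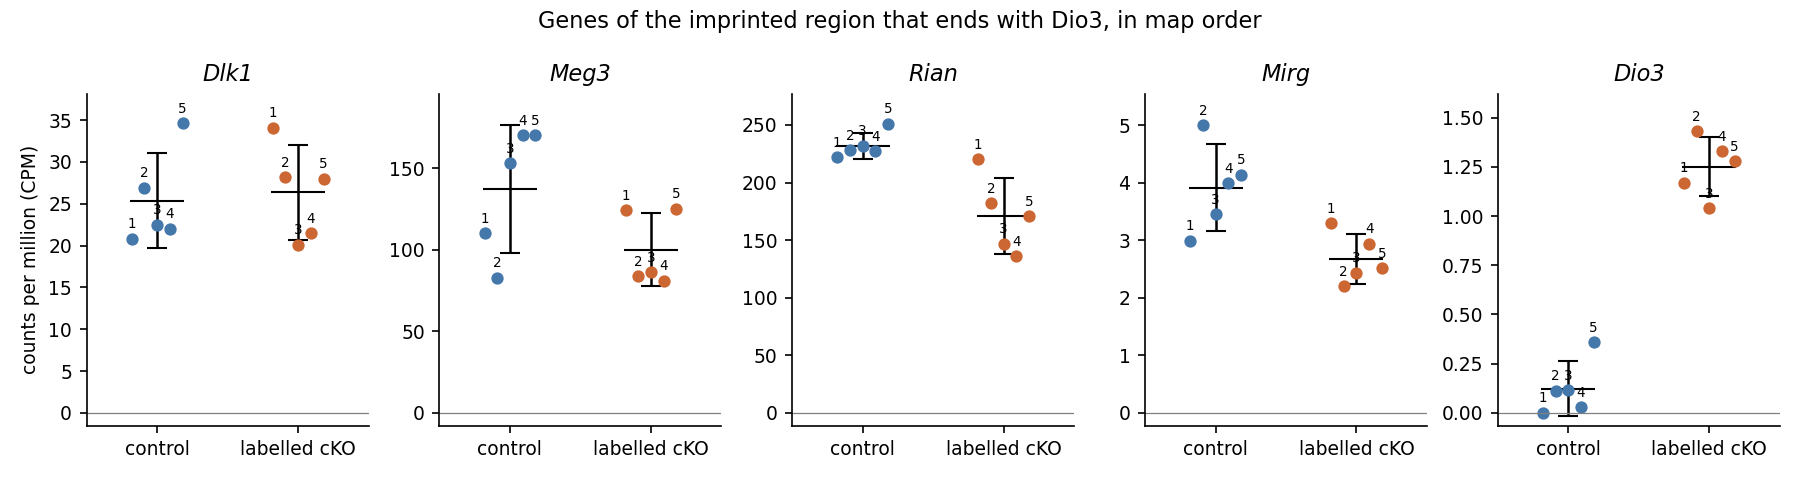
CPM of Dlk1, Meg3, Rian, Mirg and Dio3 in map order, 1 point per library with its number and bars for the mean and SD (n = 5 each). Rian and Dio3 show no overlap between genotypes, Rian being lower and Dio3 higher in the libraries labelled cKO.

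Markers of other cell types moved with genotype in part; the counts called below stand beside 0.619% of all tested genes. Summed CPM of the spiral ganglion markers was 988 to 1090 in controls and 618 to 1140 in the libraries labelled cKO. Of these 8 markers 2 were called, both lower. Of the hair cell markers 1 of 8 was called, Pvalb, also lower. The hair cell list had a median log2 fold change of -0.06, with 3 higher and 5 lower by sign, so Pvalb does not stand for that list. Among markers of brain, oligodendrocyte lineage and astrocytes, 4 of 7 tested were called, Olig1, Olig2, Aqp4 and Cbln1, all lower. The sum of that list, 407 to 559 CPM in controls and 488 to 668 CPM in the libraries labelled cKO, was carried by 2 markers that were not called, Pdgfra (mean 377 and 446 CPM) and Slc1a2 (106 and 136 CPM), and so does not show the 4 that fell; Gabra6 of cerebellar granule cells had 0 counts in every library. Erythroid markers summed to 714 to 2970 and 444 to 1300 CPM. Among the 13 lists no sum was free of overlap between genotypes. The part of cell content in the values of Dio3 or of the other members was not tested.

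RefSeq windows of 300 bases (250 before to 50 after a start, build GRCm38.p6) were at hand for 5 of the 7 genes, Dio2, Dio3, Slc16a10, Slco1c1 and Thrb, which has a pair of starts. The letters of the estrogen-related receptor element, TNAAGGTCA, were searched on both strands and occurred in 0 of these 6 windows, beside 1.28% of 32851 windows of that length. The core AGGTCA, which that element contains, occurred in 1 of the 6, beside 16.3% of all windows. The direct repeat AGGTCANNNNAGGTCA, a T3 response element, occurred in 0 of the 6, beside 0.0152% of all windows. The core match lies 184 bases before the upstream start of Thrb, within chr14:17660764-17660793 on the plus strand, and is shown in capitals because it is the one match found.
Thrb: aggagagttgacAGGTCAagggaatagggc
A match is a run of letters and not a site shown to be bound, and its absence holds for these windows alone.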

How the data were processed

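The authors deposited counts for each Ensembl gene, and FPKM made from them, for 10 libraries. Per the submitters' processing notes, STAR 2.5, HTSeq 0.61, DESeq2 and build mm10 were used; their settings, the gene annotation and how strand was used are not given in the sources used here. Exon lengths implied by the deposited FPKM were within 0.1% of GENCODE M21 (GRCm38, the same build) for 95.3% of 13923 well-counted genes, so symbols, positions and overlaps came from M21.

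Deposited counts were tested with edgeR 4.0.16: filterByExpr (minimum 10), TMM, robust quasi-likelihood F-test with genotype as the only term, Benjamini-Hochberg over all 17937 genes, called under 0.05. CPM use TMM-scaled totals; log2 CPM add a prior count of 2. SE derive from the F statistic. The script recovered changes planted in artificial counts with the same spread for every gene. The planted changes were larger than those of the members chosen for their role. It does not show how well smaller changes would be found. Alternatives used DESeq2 1.42.0, limma 3.58.1 (voom with quality weights, and log2 FPKM with 1 or 0.1 added), other scalings and filters, the replicate block, and each library left out. Totals of 33.5 to 41.8 M counts give low genes such as Dio3 few reads.

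The members and lists were chosen with earlier results of these data known. Named genes were the members, Esrrg, genes whose exons overlap a member, listed genes called or without overlap, Dio1, and the 2 genes most like each member; others are examples of a list, taken with its values known, or are said to be chosen after their values were seen. Some listed genes that count in the totals are not reported here.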

Additional observations from a re-analysis of the deposited data

Results flagged for a closer look

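In each genotype, the highest and lowest of 5 libraries were compared with the rest by Dixon's gap test for the named genes and the summed cell type markers. Of 72 groups examined, 4 had a library apart, where about 3.6 arise at the test's rate of 1 in 20; Klf9 and Thrsp share a library, and some genes had been chosen after their values were seen. Dio2 was low in control 1, at 14.6 CPM against 21.7 to 22.8 CPM in the other controls. Both Klf9, at 125 CPM against 28.0 to 54.9 CPM, and Thrsp, at 2.34 CPM against 0.740 to 0.870 CPM, were high in cKO 1. Skeletal muscle markers summed to 4.30 CPM in control 5 against 2.09 to 2.56 CPM in the other controls.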

How the results depend on the processing

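The call counts moved with the settings. Over all genes, edgeR called 111, DESeq2 307 and limma-voom with quality weights 348, an alternative that changes both the test and the weight of each library, and 52 (without control 3) to 197 (without control 2) were called with 1 library left out. For the 6 members chosen for their role the count was 0 under every alternative run. For the other pathway genes it was 0, but 2 with limma-voom and quality weights, 1 with the replicate block (Tectb, adjusted p 0.0291), and 0 to 1 with 1 library left out. In the imprinted region it was 0, but 1 with DESeq2, 1 with limma-voom and quality weights, and 0 to 1 with 1 library left out. Signs near 0 turned: Crym had -0.004 with upper-quartile factors and -0.048 to 0.10 with 1 library left out, Thrb -0.14 to 0.01, and Nr1d1 -0.33 to 0.077. Dio3 was positive in all 20 alternatives, from 0.61 on the log2(FPKM + 1) scale, which understates low genes, to 4.28. Dio3 was chosen by its rise and its genotypes did not overlap, so its sign is no test. The titles number libraries 1 to 5 in both genotypes without saying what a number shares. The correlations of same-numbered deviations were 0.0868, 0.177, 0.0995, 0.0211 and 0.179. Controls 2, 3 and 5 correlated best with the library labelled cKO of their own number, and controls 1 and 4 with cKO 5. Whether a number marks a pair cannot be told from these values. The fit with the block is given as an alternative, and its calls are not read as a stronger or weaker effect. Depth limits Dio3, Dio3os and Slc26a5.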
